A study of Homo sapiens with 4 samples.

Results

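The 33 imprinted genes described here are human genes for which the copy from the mother and the copy from the father are not used equally. They were taken as a list of gene names, matched to array probes through RefSeq accessions, and grouped by imprinted domain and by the parental allele known to be expressed. All 33 had at least 1 matched probe, and 23 had a probe well above background on all 4 arrays, among 15707 genes that met this criterion. DIRAS3 and TP73 were well above background on some arrays, and 8 members were not on any: PEG3, ZIM2, DLK1, RTL1, SNRPN, NDN, MAGEL2 and WT1. The arrays measured total RNA of each gene and did not separate the parental alleles.

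RNA came from HCT116, a human colorectal carcinoma cell line that had been divided with a migration chamber into migrating (MG) and non-migrating (non-MG) cells. The non-MG cells were measured after vehicle and after 5 µM 5-azacytidine for 48 h, and the MG cells after the same treatments. 5-Azacytidine is a cytidine analogue that traps DNA methyltransferases. Each of these 4 conditions was hybridized to 1 single-colour array, so there was no replicate and no test between conditions. MG and non-MG cells are selected populations of a tumour line, not clones, and fewer expressing cells and less RNA per cell cannot be told apart on these arrays.

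Imprinting rests on DNA methylation that differs between the parental chromosomes and is set in the germ line. A differentially methylated imprinting centre controls a domain of neighbouring genes, either because it contains the promoter of a gene or of a long non-coding RNA, or because it binds an insulator protein when unmethylated. Secondary methylation marks on other promoters of the domain are added later in development. In tumours these marks are often lost or gained, and imprinted genes are among the loci that DNA methyltransferase inhibitors can affect.

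The sequence upstream of the start site is shown for 3 members on which the results turn. These are H19, whose signal rose with 5-azacytidine, MEG3, of which 1 dim probe rose, and DIRAS3, which was above background in the non-MG cells alone. Each is the 250 bases before a RefSeq start site on the strand of the gene, with every CG dinucleotide, the methylated motif in human DNA, in capitals. CG reads the same on both strands and does not overlap itself.
H19: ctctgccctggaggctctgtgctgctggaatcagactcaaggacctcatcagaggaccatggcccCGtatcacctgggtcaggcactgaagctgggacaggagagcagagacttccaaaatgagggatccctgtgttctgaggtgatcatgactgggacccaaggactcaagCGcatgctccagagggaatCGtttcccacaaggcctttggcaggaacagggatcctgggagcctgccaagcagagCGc
MEG3: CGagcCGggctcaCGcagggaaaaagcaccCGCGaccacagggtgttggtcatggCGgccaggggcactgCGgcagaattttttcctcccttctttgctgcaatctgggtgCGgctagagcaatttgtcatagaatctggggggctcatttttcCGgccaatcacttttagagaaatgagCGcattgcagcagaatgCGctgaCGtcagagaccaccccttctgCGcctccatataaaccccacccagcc
DIRAS3: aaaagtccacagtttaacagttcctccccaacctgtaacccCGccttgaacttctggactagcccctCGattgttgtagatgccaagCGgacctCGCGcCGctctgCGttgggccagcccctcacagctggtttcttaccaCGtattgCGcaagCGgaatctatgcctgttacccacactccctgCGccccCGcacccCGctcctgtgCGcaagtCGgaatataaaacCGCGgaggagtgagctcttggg
The H19 window lies at chr11:2001267-2001516 of GRCh38.p14 on the minus strand, the MEG3 window at chr14:100825858-100826107 on the plus strand, and the DIRAS3 window at chr1:68050628-68050877 on the minus strand. They hold 4, 13 and 17 CG dinucleotides, respectively. MEG3 has further, overlapping windows with 11 and 13, of which the first is shown. Which start site the cells used was not measured, so a window need not be the active promoter. Among 35116 windows of this length from 27305 genes the median was 11, and 93.9% held at least 1. As many as in the H19 window or more were found in 70.7% of all windows, compared with 46.6% for MEG3 and 39.0% for DIRAS3. A window was given for 22 of the 33 members. CDKN1C, DLK1, IGF2, KCNQ1, KCNQ1OT1, NNAT, PEG10, PEG3, PHLDA2, SGCE and ZIM2 had none. Methylation of these bases was not measured here.

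Values are background-corrected intensities per array, which are not scaled between arrays, and ratios are log2 values after the 75th percentile of each array was subtracted. The 75th percentile of intensity lay between 75.2 and 98.7, and between 21382 and 21881 of 50594 probes were well above background on an array. A gene was called higher or lower past 1.5-fold. The spot error given with a ratio is the SD expected from the spread between repeated spots at that intensity, and it covers spotting and scanning only, not cultures or labelling. Where a probe missed the background criterion on an array, only a bound can be given. Such a fold is written as "at least" and was computed against the lowest passing signal of that array, or against the signal of the probe itself if this was higher. It takes no account of the spot error, so for dim probes it is not a guaranteed minimum. Slide position ran along with both cell type and treatment, so their parts cannot be told apart. Of 10 epithelial markers of the colon, 8 were well above background on all 4 arrays and LGALS4 and VIL1 were on none. Their summed level lay between 1200 and 1290 times the 75th percentile, compared with at most 1.32 for 7 fibroblast, 0.797 for 5 leukocyte and 0.438 for 3 endothelial markers. Subtracting the array median in place of the 75th percentile would shift every log2 ratio by -0.10 for the drug in non-MG cells, -0.04 for the drug in MG cells, 0.20 for MG cells relative to non-MG cells with vehicle and 0.26 with 5-azacytidine.

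**Figure D1:**
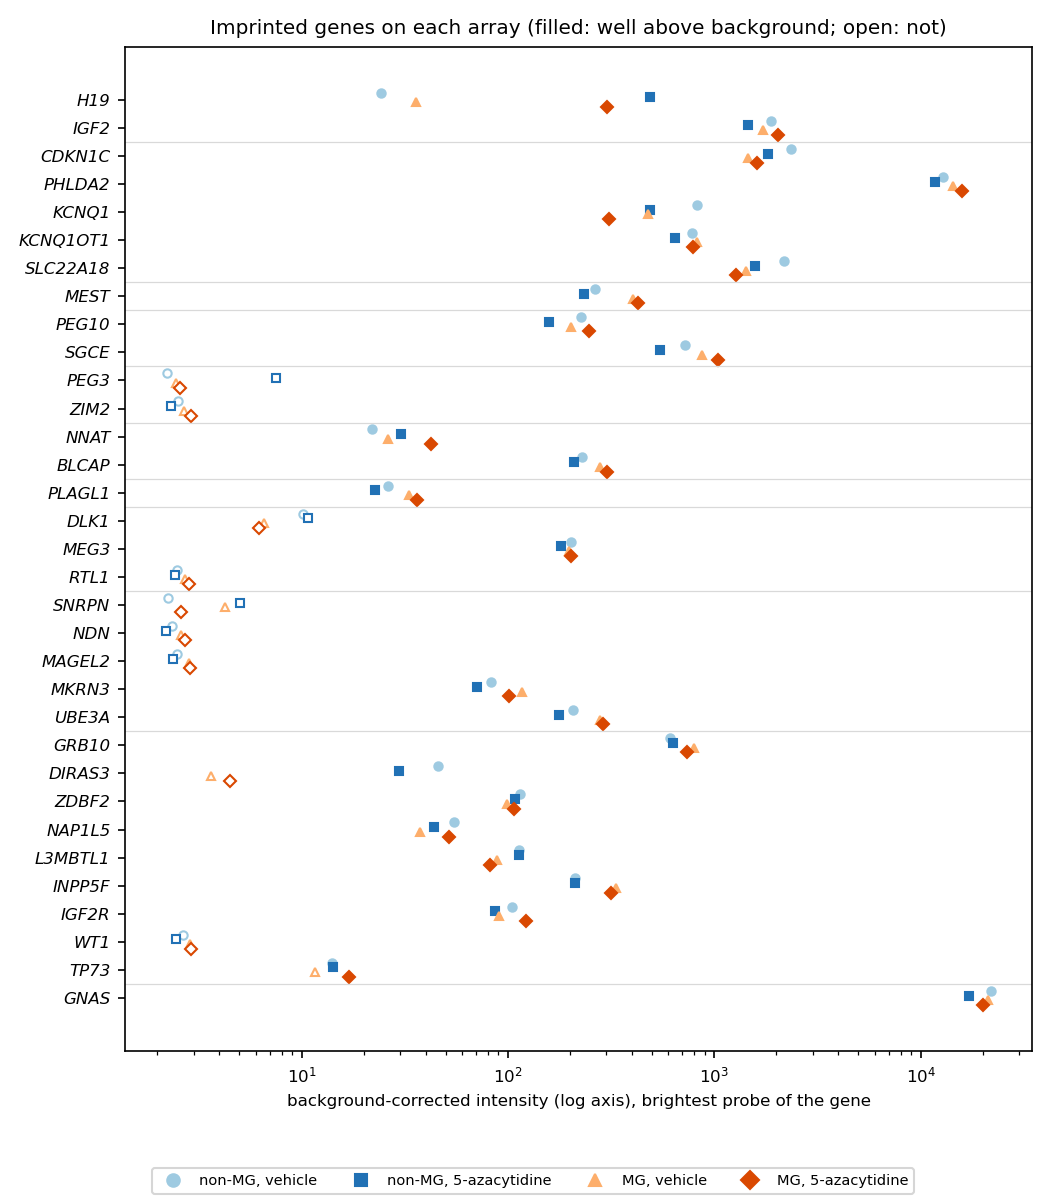
Background-corrected intensity (log axis) of the brightest probe of each of the 33 imprinted genes on the 4 arrays, with 1 point per array and grey lines between imprinted domains. Filled points were well above background and open points were not; the H19 points of the treated cells lie at 304 and 489, apart from those of the vehicle-treated cells at 24.4 and 35.8, while the DIRAS3 points of the MG cells are open.

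With 5-azacytidine, 3 of the 23 measured imprinted genes were higher in non-MG cells and the same 3, H19, MEG3 and NNAT, were higher in MG cells. The H19 rise was 17.6-fold in non-MG cells and 6.63-fold in MG cells. For MEG3 the rise came from 1 of its probes, and NNAT rose by 1.61-fold and 1.65-fold. KCNQ1 was lower by 1.52-fold in MG cells and lay short of the threshold in non-MG cells. The remaining members stayed within 1.5-fold in both cell types. In non-MG cells 1.9% of all genes were called higher and 1.68% lower, with no member lower. In MG cells 3.02% of all genes were called higher and 2.1% lower. The median log2 ratio of the members was -0.03 in non-MG cells, compared with -0.04 over all genes, and 0.17 in MG cells, compared with -0.02. Centred on the array median, 198 genes of all were higher and 539 lower in non-MG cells, in place of 298 and 264, and this also placed KCNQ1 past the threshold there with a log2 ratio of -0.64.

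H19 is the maternally expressed long non-coding RNA of the IGF2-H19 domain on chromosome 11 and is abundant in fetal tissues. Its probe A_24_P52697 had intensities of 24.4 in non-MG cells with vehicle, 489 in non-MG cells with 5-azacytidine, 35.8 in MG cells with vehicle and 304 in MG cells with 5-azacytidine. Its probe A_19_P00323082 had intensities of 21.7, 249, 31.1 and 154 on the same arrays. Both probes were well above background on all 4 arrays, and on both the treated arrays lay far above the arrays with vehicle. With the drug the log2 level of H19 was higher by 4.13 (spot error 0.15) in non-MG cells and by 2.73 (spot error 0.13) in MG cells. Of the 15707 genes, only 1 had a larger rise in non-MG cells and 13 had a larger rise in MG cells. This rank leaves out genes that were below background with vehicle, including any that the drug raised from there. The probes differed in size, with 4.54 and 3.73 in non-MG cells and 3.12 and 2.34 in MG cells. The log2 rise in MG cells minus that in non-MG cells was -1.41, with 1 array behind each value. With vehicle the MG cells stood at 0.36 (spot error 0.18) relative to the non-MG cells, and after 5-azacytidine at -1.05 (spot error 0.07), which was 2.07-fold lower. Over 6 other ways of processing, the rise stayed between 2.50 and 4.54 in non-MG cells and between 1.68 and 3.12 in MG cells.

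IGF2, the fetal growth factor that is expressed from the paternal allele of the same domain, did not rise with H19. Its probe A_23_P150609 had intensities of 1880 and 1460 in non-MG cells without and with 5-azacytidine, and of 1730 and 2040 in MG cells. The log2 ratios were -0.15 (spot error 0.07) in non-MG cells and 0.27 (spot error 0.07) in MG cells, within 1.5-fold and of opposite sign. A further IGF2 probe was well above background on the array of treated non-MG cells alone. There it was at least 1.23-fold above vehicle (log2 spot error 0.67) and at least 1.15-fold above treated MG cells (log2 spot error 0.45). IGF2R, which clears IGF2 from the cell surface to lysosomes, had intensities of 105, 86.4, 90.8 and 123 on the 4 arrays in the order used for H19. Its drug ratios were -0.07 (spot error 0.12) in non-MG cells and 0.46 (spot error 0.12) in MG cells, short of the threshold in both.

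MEG3 is the maternally expressed long non-coding RNA of the DLK1-MEG3 domain on chromosome 14. It had 5 probes, which disagreed. Probe A_33_P3255434 had intensities of 15.9 and 46.0 in non-MG cells without and with 5-azacytidine, and of 14.0 and 45.3 in MG cells. Its log2 rises were 1.74 and 1.73 (spot error 0.35 each), and its treated arrays were the higher ones in both cell types. Probe A_32_P40547 had intensities of 202, 181, 198 and 202 on the 4 arrays, with log2 ratios of 0.05 and 0.06 (spot error 0.10 each). The other 3 probes did not pass background on the 4 arrays. The mean over the measured probes, 0.90 (spot error 0.18) in non-MG cells and 0.89 (spot error 0.18) in MG cells, therefore passed the threshold through a single probe, and with only the brightest probe the call was lost. The paternally expressed members of this domain, DLK1, a transmembrane relative of the Notch ligands, and RTL1, a gene derived from a retrotransposon, were not above background with or without the drug.

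NNAT, a small membrane protein of neural and endocrine cells that is expressed from the paternal allele, had intensities of 21.9 in non-MG cells with vehicle and 30.5 with 5-azacytidine, and of 26.3 and 42.3 in MG cells. The treated arrays were higher in both cell types, with log2 ratios of 0.69 (spot error 0.28) and 0.72 (spot error 0.24). With a normexp background correction the ratios were 0.33 and 0.26 and the calls were lost. BLCAP, in whose intron NNAT lies, had drug ratios of 0.07 and 0.05 (spot error 0.11 and 0.10), measured by 2 probes.

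**Figure D2:**
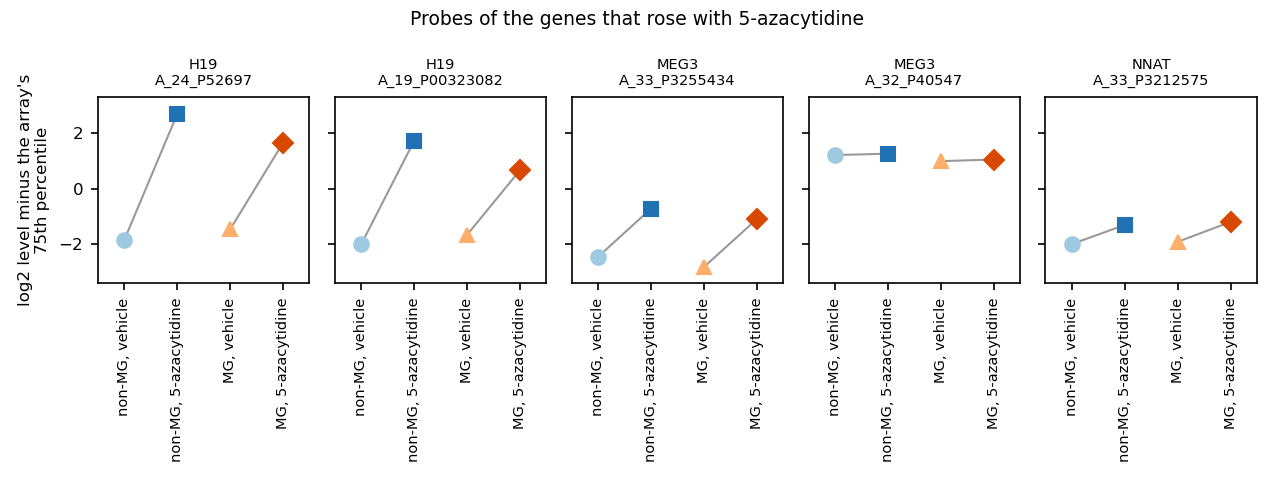
Level on the 4 arrays (log2 intensity minus the 75th percentile of the array) of the measured probes of H19, MEG3 and NNAT, with 1 point per array and a line from vehicle to 5-azacytidine within each cell type. Both H19 probes and MEG3 probe A_33_P3255434 lie higher on the treated arrays, while MEG3 probe A_32_P40547 stays between 1.0 and 1.27.

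KCNQ1, a voltage-gated potassium channel subunit that is expressed from the maternal allele in many fetal tissues, was the only member called lower with the drug. It had intensities of 825 in non-MG cells with vehicle, 489 in non-MG cells with 5-azacytidine, 479 in MG cells with vehicle and 309 in MG cells with 5-azacytidine. The treated array was the lower one in each cell type. The log2 ratios were -0.54 (spot error 0.09) in non-MG cells and -0.60 (spot error 0.09) in MG cells, on either side of the threshold. With the normexp correction the ratio in MG cells was -0.45. The paternally expressed antisense RNA KCNQ1OT1, whose promoter is the imprinting centre of this domain, had drug ratios of -0.05 and -0.04 (spot error 0.08 each).

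The other maternally expressed genes of the KCNQ1 domain stayed within 1.5-fold under the drug. CDKN1C, an inhibitor of cyclin-dependent kinases, had drug ratios of -0.15 in non-MG cells and 0.18 in MG cells (spot error 0.07 each). SLC22A18, a transporter-like membrane protein, had -0.25 and -0.11 (spot error 0.07 each). PHLDA2, which restrains growth of the placenta, had 0.07 and 0.17 (spot error 0.07 each), with intensities from 11700 to 15900 over the 4 arrays.

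Apart from NNAT, the paternally expressed genes whose promoter lies at a germ-line mark stayed within 1.5-fold under the drug. PEG10, a retrotransposon-derived gene of the placenta, had intensities of 227, 159, 203 and 247 in the order used above and drug ratios of -0.30 in non-MG cells and 0.32 in MG cells (spot error 0.10 each). Its divergent neighbour SGCE, a sarcoglycan, had -0.19 and 0.29 (spot error 0.08 each). The sign was thus opposite between the cell types for both genes of this domain on chromosome 7. MEST, a hydrolase-like protein, had 0.04 and 0.12 (spot error 0.10 and 0.09). PLAGL1, a zinc finger transcription factor, had 0.01 and 0.17 (spot error 0.28 and 0.18). NAP1L5, of the nucleosome assembly protein family, had -0.12 and 0.49 (spot error 0.18 each), and L3MBTL1, a chromatin protein that binds methylated histones, had -0.04 and 0.20 (spot error 0.13 and 0.15).

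The members left to describe, all with isoform- or tissue-dependent expression or without a germ-line mark at the promoter, had these drug ratios. MKRN3 and UBE3A are ubiquitin ligases of the Prader-Willi and Angelman domain on chromosome 15. MKRN3 had drug ratios of 0.00 and -0.17 (spot error 0.12 each), and UBE3A had -0.03 and 0.08 (spot error 0.10 and 0.09). The other 3 members of this domain, the splicing protein gene SNRPN and the MAGE family genes NDN and MAGEL2, were not above background on any array, drug-treated arrays included. ZDBF2, a zinc finger gene, had 0.11 and 0.15 (spot error 0.12 each). GNAS, the stimulatory G protein subunit, had -0.16 and -0.01 (spot error 0.05 each) as the mean of 2 probes. INPP5F, an inositol phosphatase, had 0.05 and -0.08 (spot error 0.06 each), and GRB10, an adaptor that dampens insulin receptor signalling, had 0.21 and 0.18 (spot error 0.04 each). The GRB10 probes differed in MG cells, where the mean of 0.18 became -0.08 with the brightest probe.

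**Figure D3:**
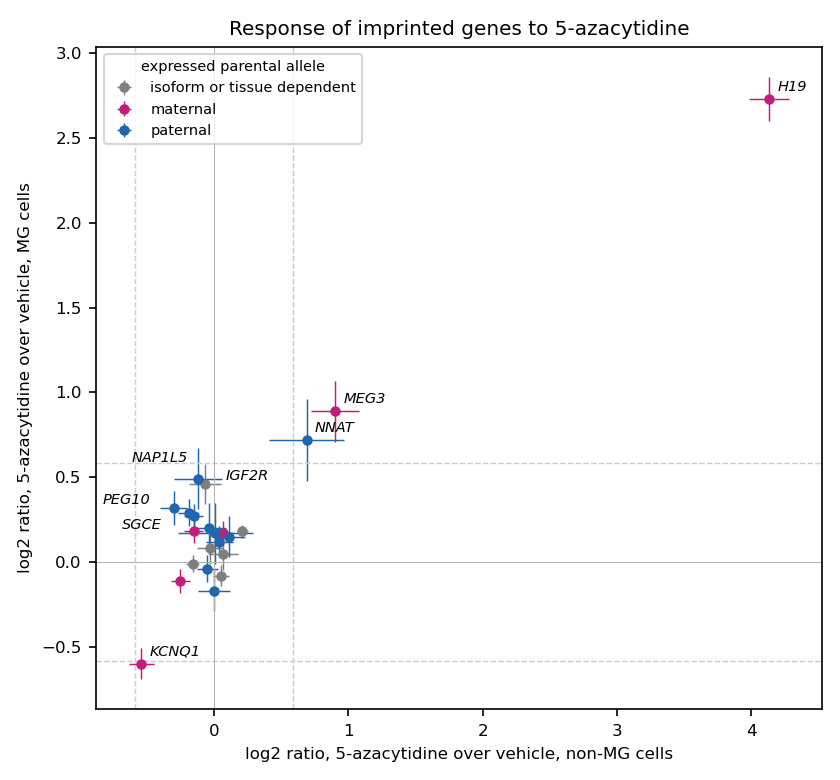
Log2 ratio of 5-azacytidine over vehicle in non-MG cells (x axis) against that in MG cells (y axis) for the 23 imprinted genes measured on all 4 arrays, coloured by expressed parental allele. Bars are the spot error and dashed lines mark 1.5-fold; H19 lies at 4.13 and 2.73, MEG3 and NNAT lie past the threshold on both axes, and KCNQ1 lies at -0.54 and -0.60.

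Between the cell types, no imprinted gene was higher in the MG cells past 1.5-fold, and 5 of 23 were lower with vehicle: KCNQ1, CDKN1C and SLC22A18 of the KCNQ1 domain, and L3MBTL1 and NAP1L5. After 5-azacytidine, 3 of 23 were lower, namely H19, KCNQ1 and SLC22A18. With vehicle 5.68% of all genes were called higher and 8.24% lower in the MG cells, and after 5-azacytidine 5.74% were called higher and 7.33% lower. The median log2 ratio of the members was -0.09 with vehicle, compared with -0.01 over all genes, and 0.08 after 5-azacytidine, compared with 0.02. Centred on the array median, 2127 of all genes were higher and 601 lower with vehicle, in place of 892 and 1295, and 3005 were higher and 397 lower after 5-azacytidine, in place of 902 and 1151. Under this centring MEST became the only member higher with vehicle (0.63), and MEST (0.77), SGCE (0.82) and UBE3A (0.61) became higher after 5-azacytidine, while NAP1L5 with vehicle (-0.53) and SLC22A18 after 5-azacytidine (-0.40) were no longer called. Each array enters both a comparison of cell types and a comparison of treatments, so these comparisons are not independent of each other. The comparisons of cell types with vehicle and with 5-azacytidine share no array.

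The KCNQ1 domain held 3 of the 5 members that were lower in MG cells with vehicle, and 5 of the 23 measured members. Over all genes 8.24% were lower in this comparison. The 3 genes lie in 1 domain and do not stand for separate loci. KCNQ1 had a log2 MG/non-MG ratio of -0.97 with vehicle and -1.02 after 5-azacytidine (spot error 0.09 each), with intensities falling from 825 to 479 and from 489 to 309. It kept this call under all 6 other ways of processing, between -0.98 and -0.77 with vehicle and between -1.10 and -0.77 after 5-azacytidine. CDKN1C had intensities of 2350 in non-MG and 1460 in MG cells with vehicle, and of 1830 and 1610 after 5-azacytidine. Its ratios were -0.87 and -0.54 (spot error 0.07 each), past the threshold with vehicle only. SLC22A18 had intensities of 2170 and 1420 with vehicle and of 1580 and 1280 after 5-azacytidine. Its ratios were -0.80 and -0.66 (spot error 0.07 each), so that the non-MG cells had the higher value of each pair for all 3 genes.

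The remaining members of the domain did not share this difference. PHLDA2 had MG/non-MG ratios of -0.02 with vehicle and 0.08 after 5-azacytidine (spot error 0.07 each). KCNQ1OT1 had intensities of 778, 647, 827 and 788 on the 4 arrays and ratios of -0.09 and -0.08 (spot error 0.08 each). A further KCNQ1OT1 probe was not above background on any array. In the neighbouring IGF2-H19 domain, IGF2 had ratios of -0.30 and 0.12 (spot error 0.07 each).

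DIRAS3, a Ras-related GTPase that restrains growth and is expressed from the paternal allele, passed background in the non-MG cells alone. Its probe had intensities of 45.9 in non-MG cells with vehicle and 29.7 with 5-azacytidine, and of 3.65 and 4.51 in MG cells. The log2 drug ratio in non-MG cells was -0.42 (spot error 0.24), within 1.5-fold. The MG cells were at least 4.53-fold lower with vehicle (log2 spot error 0.26) and at least 3.22-fold lower after 5-azacytidine (log2 spot error 0.62). The drug did not bring the MG signal above background. TP73, a member of the p53 family, was near the detection limit, with intensities of 14.0, 14.2, 11.6 and 16.9, and was not well above background in MG cells with vehicle. There it was at least 1.37-fold lower than in non-MG cells (log2 ratio -0.46, spot error 0.45). With 5-azacytidine the MG cells were at least 1.5-fold above their vehicle (log2 ratio 0.58, spot error 0.38). A further TP73 probe was above background on no array.

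L3MBTL1 was measured by 2 probes. Probe A_23_P210445 had intensities of 36.8, 26.1, 19.8 and 27.1 and an MG/non-MG ratio of -1.07 with vehicle (spot error 0.24) and -0.30 after 5-azacytidine (spot error 0.28). Probe A_23_P501961 had intensities of 113, 113, 88.3 and 81.7 and ratios of -0.54 and -0.82 (spot error 0.12 each). Both were lower in MG cells under each treatment, but not by the same amount, and their mean was -0.80 with vehicle (spot error 0.13) and -0.56 after 5-azacytidine (spot error 0.15). The call with vehicle was lost with the brightest probe or the normexp correction. NAP1L5 had intensities of 54.9, 43.7, 37.7 and 51.8 and ratios of -0.72 and -0.11 (spot error 0.18 each).

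Higher values in MG cells stayed short of the threshold. MEST had intensities of 263 and 233 in non-MG cells and of 403 and 427 in MG cells, with ratios of 0.44 and 0.52 (spot error 0.09 and 0.10). SGCE had intensities of 719 and 546 in non-MG cells and of 868 and 1040 in MG cells, with ratios of 0.09 and 0.57 (spot error 0.08 each). UBE3A had ratios of 0.24 and 0.35 (spot error 0.10 each), MKRN3 had 0.32 and 0.15 (spot error 0.12 each) and PLAGL1 had 0.15 and 0.31 (spot error 0.24 each). For MEST the arrays of the MG cells lay above those of the non-MG cells on the intensity scale and on the scaled levels.

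The other members also stayed within 1.5-fold between the cell types. PEG10 had MG/non-MG ratios of -0.34 with vehicle and 0.28 after 5-azacytidine (spot error 0.10 each), and IGF2R had -0.39 and 0.14 (spot error 0.12 each). ZDBF2 had -0.41 and -0.37 (spot error 0.12 each), and GNAS had -0.26 and -0.10 (spot error 0.05 each). MEG3 had -0.29 under each treatment (spot error 0.23 and 0.11). INPP5F had 0.24 and 0.11 (spot error 0.06 each), BLCAP had 0.12 and 0.11 (spot error 0.10 each), NNAT had 0.08 and 0.11 (spot error 0.28 and 0.24), and GRB10 had -0.02 and -0.05 (spot error 0.04 each).

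**Figure D4:**
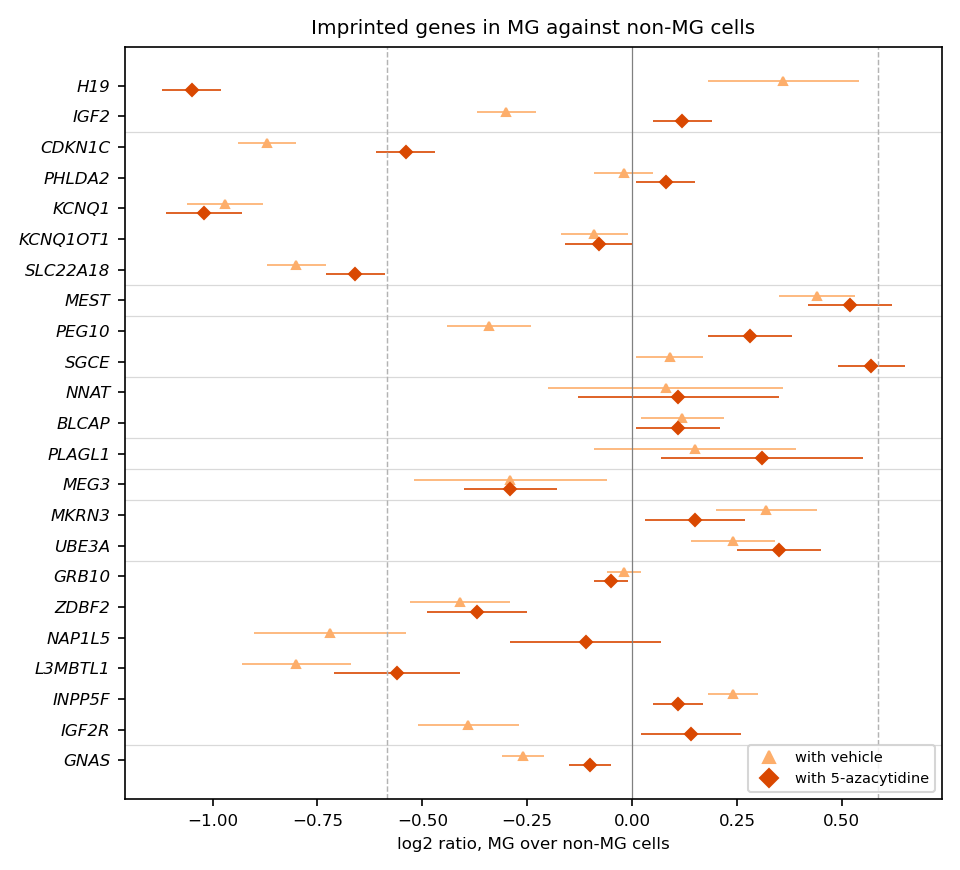
Log2 MG/non-MG ratio with vehicle (triangles) and with 5-azacytidine (diamonds) for the 23 imprinted genes measured on all 4 arrays, ordered by imprinted domain. Bars are the spot error and dashed lines mark 1.5-fold; KCNQ1 lies near -1 under both treatments, and H19 lies at 0.36 with vehicle and at -1.05 with 5-azacytidine.

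Grouped by the expressed allele, all 6 maternally expressed members were measured, compared with 11 of 19 paternally expressed members and 6 of 8 with isoform- or tissue-dependent expression. Of the maternally expressed genes, H19 and, through 1 of its probes, MEG3 were higher with 5-azacytidine in both cell types. In MG cells 3 were lower with vehicle (KCNQ1, CDKN1C and SLC22A18) and 3 after 5-azacytidine (H19, KCNQ1 and SLC22A18). The median log2 MG/non-MG ratio of the class was -0.54 with vehicle and -0.60 after 5-azacytidine. Of these 6 genes, 4 lie in the KCNQ1 domain, so they do not stand for separate loci. Of the paternally expressed genes, NNAT was higher with the drug in both cell types and 2 were lower in MG cells with vehicle, with medians of -0.09 and 0.12. None of the 6 isoform- or tissue-dependent genes was called in any of the 4 comparisons. Over all genes 1.9% were higher and 1.68% lower with the drug in non-MG cells, 3.02% and 2.1% in MG cells, 5.68% and 8.24% in MG relative to non-MG cells with vehicle, and 5.74% and 7.33% after 5-azacytidine, so no call among 6 genes is near these shares and the classes are too small to be compared. Of the 9 measured members with a promoter at a germ-line mark, NNAT was called with the drug in both cell types. Of the 14 measured members without one, H19 and MEG3 were called in both and KCNQ1 in MG cells alone. These 2 classes are too small to be compared as well.

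A further list of 71 other imprinted genes gave 61 with a probe and 25 above background on all 4 arrays. Of these 25, none was higher with the drug in either cell type, where 1.9% of all genes were higher in non-MG and 3.02% in MG cells, so a count of 0 in 25 is near the share over all genes. HYMAI, a non-coding RNA of the PLAGL1 domain, was lower in non-MG cells (log2 ratio -0.68, spot error 0.24), and DDC, an enzyme of dopamine and serotonin synthesis, was lower in MG cells (-0.77, spot error 0.38). Between the cell types, 2 of the 25 were higher and 1 lower in MG cells with vehicle, and 3 and 1 after 5-azacytidine. Over all genes the shares were 5.68% and 8.24% with vehicle and 5.74% and 7.33% after 5-azacytidine. ANO1, a calcium-activated chloride channel, was higher in MG cells with vehicle (1.71, spot error 0.11) and after 5-azacytidine (1.47, spot error 0.11). The non-coding RNA VTRNA2-1 was higher as well (0.71 and 0.94, spot error 0.24 each), CMTM1 was lower (-0.65 under each treatment, spot error 0.05 and 0.06), and GET1 was higher after 5-azacytidine (0.64, spot error 0.11). HYMAI shares its imprinting centre with PLAGL1, which had drug ratios of 0.01 and 0.17.

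Other listed genes were above background on some arrays but not on all 4, and they are named after their values were seen. FAM50B, a paternally expressed retrogene, had intensities of 2.59 in non-MG cells with vehicle, 30.9 with 5-azacytidine, 2.78 in MG cells with vehicle and 63.5 with 5-azacytidine. It was at least 3.56-fold higher with the drug in non-MG cells and at least 5.67-fold higher in MG cells. TFPI2, a protease inhibitor that is imprinted in the placenta, had intensities of 2.24, 3.53, 2.43 and 52.3 and was at least 4.66-fold higher in MG cells. It was not above background in non-MG cells with or without the drug. The remaining signals were dimmer. CALCR, the calcitonin receptor, had intensities of 5.61, 17.7, 7.82 and 7.32, was above background in treated non-MG cells alone and was at least 2.04-fold higher with the drug there. MESTIT1, an antisense RNA at MEST, was likewise above background in treated non-MG cells alone and at least 1.34-fold higher. CPA4, a carboxypeptidase, was above background in treated MG cells alone and at least 1.39-fold higher. KLF14, a zinc finger gene, had intensities of 7.84, 13.3, 16.9 and 6.93. It was at least 1.53-fold higher with the drug in non-MG cells and at least 1.4-fold lower in MG cells. Its log2 spot errors were 0.67 and 0.62, so the opposite directions are not firm. SNURF was above background in MG cells with vehicle alone, at least 1.02-fold above treated MG cells, and TRPM5 was above background on every array but that one and at least 1.19-fold higher with the drug in MG cells. SGK2 was above background in the non-MG cells alone, which were at least 1.47-fold above the MG cells with vehicle and at least 1.5-fold after 5-azacytidine. The log2 spot error was 0.62 for CALCR, 0.67 for MESTIT1 and SNURF, and 0.45 for CPA4 and TRPM5. For SGK2 it was 0.67 with vehicle and 0.39 after 5-azacytidine.

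Proteins that keep imprints through cell division were a further list of 24 genes, of which 15 were above background on all 4 arrays. None of the 15 was called with 5-azacytidine in either cell type, which for 15 genes is near the share over all genes, 1.9% higher and 1.68% lower in non-MG cells and 3.02% and 2.1% in MG cells. DNMT1, the maintenance methyltransferase that 5-azacytidine traps as a protein, had RNA ratios of 0.13 and 0.00 (spot error 0.08 each), and TRIM28, the corepressor recruited to imprinting centres, had 0.04 and 0.17 (spot error 0.07 each). With vehicle 3 of the 15 were called higher in MG cells, compared with 5.68% of all genes. These were UHRF1, which brings DNMT1 to hemimethylated DNA (0.66, spot error 0.06), the chromatin remodeller HELLS (0.73, spot error 0.07) and the zinc finger gene ZNF202 (1.20, spot error 0.24). A list of 15 genes is too small for this count to be read as a difference of the list. After 5-azacytidine, where 5.74% of all genes were higher, only ZNF202 was called (1.29, spot error 0.24). UHRF1 then stood at 0.21 and HELLS at 0.15. Of genes outside the criterion, also named after their values were seen, KHDC3L, an oocyte factor for maternal imprints, had intensities of 2.01, 23.8, 2.28 and 58.9 and was at least 2.75-fold and 5.26-fold higher with the drug in non-MG and MG cells. NLRP7, of the same oocyte complex, had 2.14, 20.4, 2.34 and 22.7 and was at least 2.35-fold and 2.02-fold higher. ARID4A, a chromatin protein, had 14.8, 9.88, 15.8 and 18.9 and missed background in treated non-MG cells alone. It was at least 1.28-fold lower there with the drug (log2 spot error 0.45).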

How the data were processed

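RNA of HCT116 cells was measured on 4 single-colour Agilent SurePrint G3 arrays, 400 ng per array. The labels name RNAiso Plus and the methods an RNeasy kit for extraction. The authors deposited, per array, the output of Agilent Feature Extraction 11.5.1.1 with linear intensity values, not normalized between arrays, and a table of log2 values made in GeneSpring in which each probe is centred on its own median. A filter on the lowest 20th percentile of signals is named in the methods.

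The log2 of the background-corrected intensity minus the 75th percentile of its array was computed. Control spots and 5 outlier-flagged probes of 50599 were left out, spots of a probe and probes of a gene were averaged, and genes had to be well above background on all 4 arrays. Accessions without version named 30000 probes (59.3%) through RefSeq of GRCh38.p14. The array design uses hg19, so no probe coordinates are given. Spot error came from 902 probes spotted 10 times, and no spot was saturated. The number of arrays limits precision, and no test was made. The 1.5-fold call was run on simulated arrays of 15707 genes for the drug comparison in non-MG cells. All 200 of 200 genes changed 3-fold were recovered, and 86 unchanged genes passed. Only spot error was simulated, so variation between cultures or labelling and recovery of changes near 1.5-fold were not covered.

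Members, gene lists, domains, alleles and germ-line marks came from general knowledge and were chosen with earlier results of these data known. Members above background on any array are named, and listed genes where called. DNMT1, TRIM28 and listed genes above background on some arrays only are named in addition. Of the latter, FAM50B, KHDC3L and NLRP7 passed background only on the treated arrays, where they are high. TFPI2 and CPA4 passed only on the array of treated MG cells, and CALCR and MESTIT1 only on that of treated non-MG cells. The rises given for all these genes come from the arrays through which they were named. Alternatives were normexp (offset 50, on the median spot signal), quantile normalization, median centring, other filters and probe choices, signals raised to the detection limit, the deposited log2 values, and thresholds of 2-fold and 1.4-fold. Python 3.11.15, numpy 2.4.6, pandas 2.3.3, matplotlib 3.10.9, R 4.3.3 and limma 3.58.1 were used.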

Additional observations from a re-analysis of the deposited data

Results flagged for a closer look

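The drug ratio had opposite signs in the 2 cell types, each larger than its spot error, for 4 imprinted genes. The log2 ratio of 5-azacytidine over vehicle in MG cells minus that in non-MG cells was 0.62 for PEG10, 0.48 for SGCE, 0.42 for IGF2 and 0.33 for CDKN1C. All were lower with the drug in non-MG cells and higher in MG cells, and none passed 1.5-fold in either. With 1 array per condition these differences were not tested. How many of all genes meet the same rule was not counted, so the number is not a trait of imprinted genes. The IGF2 ratio in non-MG cells changed from -0.15 to 0.07 when signals were raised to the detection limit, because its dimmer probe then entered the mean. PEG10 and SGCE share a promoter region on chromosome 7.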

How the results depend on the processing

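With 1 array per condition, no replicate could be left out and the ratios carry no error between cultures. No paired analysis was possible because each condition had a single array, and the labels carry no replicate numbers. The number of members called with the drug in non-MG cells was 3, and became 1 with normexp, 5 with no filter and 1 at 2-fold. In MG cells 4 became 1 with normexp and 1 at 2-fold. Between the cell types with vehicle, 5 became 3 with normexp and 0 at 2-fold, and after 5-azacytidine 3 became 5 with median centring, 6 with no filter, 5 with single probes and 7 at 1.4-fold. The normexp correction with an offset pulls ratios of dim probes towards 0 by construction. Over all genes it called 55 higher and 77 lower with the drug in non-MG cells, 138 and 50 in MG cells, 464 and 327 between the cell types with vehicle, and 716 and 183 after 5-azacytidine. With it, KCNQ1 with the drug in MG cells, L3MBTL1 and NAP1L5 with vehicle, MEG3 and NNAT with the drug, and SLC22A18 after 5-azacytidine were no longer called. With only the brightest probe MEG3 fell to 0.05 and 0.06, and L3MBTL1 with vehicle was lost. H19 with the drug in both cell types and after 5-azacytidine between them, KCNQ1 between them under each treatment, and CDKN1C and SLC22A18 with vehicle kept their calls under all 6 alternatives run for single genes. Of 552 single-gene ratios under these alternatives, 123 moved past the spot error. No called ratio changed sign, and 36 uncalled ones of at most 0.20 did. The deposited log2 values moved 0 of 92 ratios. Signals below about the lowest intensity well above background, 9.95 to 11.8, give bounds only, which limits DIRAS3 and TP73.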
